A study of Homo sapiens with 2 samples.

Results

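The sites described here are 14023 bins of 500 bp, far from promoters and poor in CpG dinucleotides, that were unmethylated in the acute myeloid leukemia (AML) cell line OCI-AML3 and methylated in the AML cell line AML5. They were chosen by their measured methylation level. A bin was a candidate if 3 to 9 of its CpG dinucleotides had been read 10 or more times in both lines and if it lay over 5 kb from every annotated transcription start site (TSS) on the autosomes. The bin level was the mean of the CpG levels, and bins below 20% in OCI-AML3 and above 70% in AML5 were kept. They made up 0.994% of 1411316 candidate bins, which were themselves taken from 2059753 autosomal bins that met the limits on reads and CpG number. The mirror set, below 20% in AML5 and above 70% in OCI-AML3, held 1353 bins, or 0.0959% of the candidates.

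Cytosine methylation at CpG dinucleotides is laid down by de novo methyltransferases, of which DNMT3A is the main enzyme in blood cells, and is copied at each cell division. Most CpG dinucleotides outside promoters are methylated. Short stretches of low methylation in CpG-poor sequence are typical of enhancers held by transcription factors, and in myeloid cells these include PU.1, RUNX and C/EBP proteins. Long stretches of partial methylation, typical of cultured and malignant cells, cover late-replicating, gene-poor DNA.

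Whole-genome bisulfite sequencing (WGBS) was run on 1 library per line, to compare a DNMT3A mutant with a DNMT3A wild-type AML line. OCI-AML3 is labelled mutant and carries a heterozygous missense mutation of DNMT3A, and AML5, named OCI-AML5 in its sample record, is labelled wild type. Both are established human cell lines from different patients, grown without treatment under the same culture conditions according to the labels, so the DNMT3A genotype and every other difference between the lines cannot be told apart. OCI-AML3 gave 902802339 methylation calls and AML5 gave 894828667, with medians of 28 and 31 calls per autosomal CpG. With 1 library each, the spread between cultures is unknown and no difference between the lines was tested. Intervals below are 95% intervals that cover counting error alone.

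Stretches of the reference are shown for sites on which the results turn, as the plus strand of GRCh37 from 5′ to 3′. The first 3 stretches have the CpG dinucleotides used for the bin level in capitals. They come from introns of LIN7A, FHIT and CD96. All used CpG dinucleotides of the LIN7A and CD96 sites are shown, and 3 of the 4 of the FHIT site.
LIN7A intron, chr12:81234159-81234214: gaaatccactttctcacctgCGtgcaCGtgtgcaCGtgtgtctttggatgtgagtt
FHIT intron, chr3:60709610-60709849: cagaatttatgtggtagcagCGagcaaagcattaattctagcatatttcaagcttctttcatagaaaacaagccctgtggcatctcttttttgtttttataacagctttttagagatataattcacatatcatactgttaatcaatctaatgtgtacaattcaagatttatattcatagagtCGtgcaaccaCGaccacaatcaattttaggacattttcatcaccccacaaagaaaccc
CD96 intron, chr3:111254055-111254243: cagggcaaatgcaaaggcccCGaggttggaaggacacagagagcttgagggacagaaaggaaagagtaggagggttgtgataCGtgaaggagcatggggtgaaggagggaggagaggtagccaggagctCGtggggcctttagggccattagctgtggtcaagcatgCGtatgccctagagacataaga

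The other 5 stretches have a match to the C/EBP motif in capitals (TTGCNNAA on either strand, where N is any base). They were picked, after their values were seen, from sites with highly methylated surroundings. The first lies upstream of NLRP3 and the second in an intron of UST, and the others are intergenic, with MBNL1, SCG3 and MOGAT1 as the nearest protein-coding genes.
NLRP3 upstream, chr1:247564667-247564814: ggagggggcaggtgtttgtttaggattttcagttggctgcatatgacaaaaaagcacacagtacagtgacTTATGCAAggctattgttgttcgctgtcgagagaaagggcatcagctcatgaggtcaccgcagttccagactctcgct
UST intron, chr6:149333748-149333895: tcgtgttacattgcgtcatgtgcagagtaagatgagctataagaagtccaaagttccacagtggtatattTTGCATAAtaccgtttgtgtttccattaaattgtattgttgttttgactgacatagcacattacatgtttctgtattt
MBNL1 upstream, chr3:151814798-151814945: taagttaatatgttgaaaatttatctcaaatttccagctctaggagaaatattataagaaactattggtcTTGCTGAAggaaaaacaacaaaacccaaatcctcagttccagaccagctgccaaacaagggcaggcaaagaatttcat
SCG3 region, chr15:51957696-51957843: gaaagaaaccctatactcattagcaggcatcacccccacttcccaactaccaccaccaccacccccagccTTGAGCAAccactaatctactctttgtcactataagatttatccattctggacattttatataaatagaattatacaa
MOGAT1 region, chr2:223608521-223608668: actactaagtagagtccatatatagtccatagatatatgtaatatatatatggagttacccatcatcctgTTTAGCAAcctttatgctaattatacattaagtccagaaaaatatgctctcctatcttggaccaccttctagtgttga

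The levels of the sites are a description, with no test, because the sites were selected on them. Among all 1411316 candidates the median was 75.9% in OCI-AML3 and 85.1% in AML5, and 99628 candidates lay below 20% in OCI-AML3 against 28622 in AML5. Of the bins low in OCI-AML3, 14.1% were above 70% in AML5. Of the bins low in AML5, 4.73% were above 70% in OCI-AML3. The OCI-AML3-only sites thus outnumbered the AML5-only bins 10.4 to 1.

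**Figure D1:**
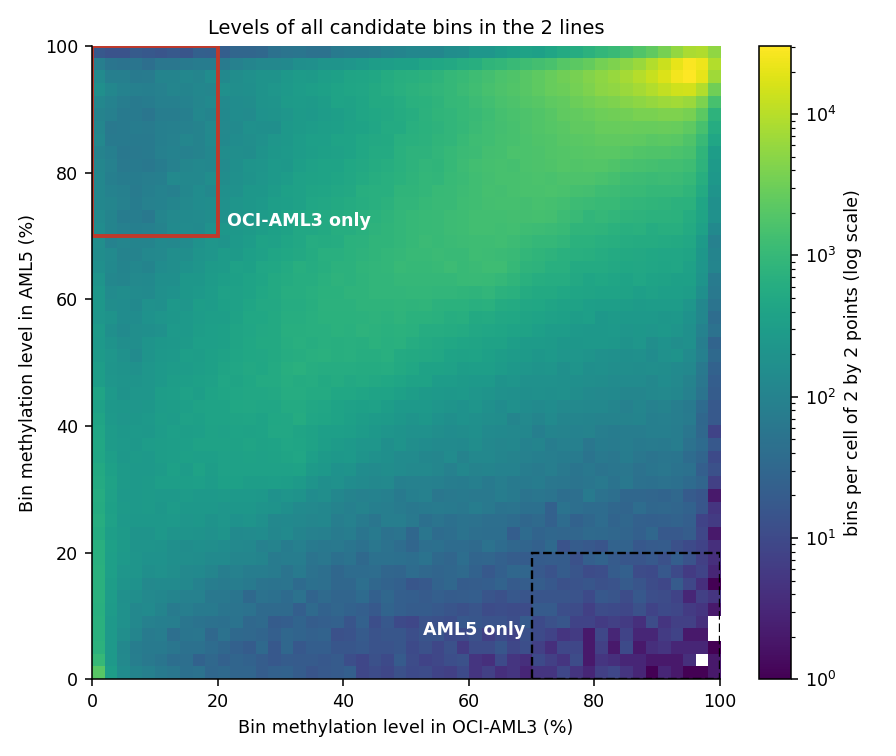
Number of candidate bins by methylation level in OCI-AML3 (horizontal axis) and AML5 (vertical axis), in cells of 2 by 2 percentage points with a log color scale. The solid box holds the 14023 OCI-AML3-only sites and the dashed box the 1353 AML5-only bins.

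Within the selected set the median was 11.3% in OCI-AML3 (interquartile range 4.95% to 16.1%) and 83.1% in AML5 (76.0% to 90.9%), and the median difference was a decrease of 72.6 percentage points in OCI-AML3. A site rested on a median of 102 calls in OCI-AML3 (range 30 to 1239) and 128 in AML5 (31 to 799). Counting intervals of the pooled calls lay wholly past both limits in 5567 sites (39.7%), so most sites are not separated from the limits by this measure. The limits themselves applied to the mean of the CpG levels, which can differ from the share of pooled calls. The 3 sites nearest the OCI-AML3 limit on the inside had levels of 19.99%, and the 3 nearest outside were at 20%. On the AML5 side the nearest bins inside and outside the limit were both at 70% to 2 decimals. Moving only the OCI-AML3 limit to 25% would have added 5889 bins, and 4414 of the selected sites lay between 15% and 20%. The boundary therefore ran through a continuous distribution of levels.

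The sites held 57034 used CpG dinucleotides, of which 35.5% had no methylated call in OCI-AML3. Only 2.52% of these CpG dinucleotides were above 50% in OCI-AML3, and 6.33% were below 50% in AML5. In 761 sites every call in OCI-AML3 was unmethylated, and in 38 sites every call in AML5 was methylated. Of the sites, 7013 (50.0%) had 3 used CpG dinucleotides, the smallest number allowed, and 267 had 9. The share of candidates that were selected fell from 1.68% at 3 CpG dinucleotides to 0.352% at 9. In 272 sites (1.94%) the reference held more than 9 CpG dinucleotides, some of them read too rarely to be used.

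CpG dinucleotides in the same bins that were read too rarely to enter the bin level gave a value the selection did not use directly. They come from the same libraries and can share reads with the used CpG dinucleotides, so this value is not independent of the selection. In the 4998 sites that had such a CpG with a call in both lines, 32.4% of calls in OCI-AML3 and 77.3% in AML5 were methylated. The same kind of CpG over all candidates gave 67.4% and 76.3%. The rarely read CpG dinucleotides of the selected sites were thus lower in OCI-AML3 than those of candidates at large, though not as low as the CpG dinucleotides that chose the sites.

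Depth at the sites was close to that of other bins. The median number of calls per used CpG was 27 in OCI-AML3 against 29.2 over all candidates, and 34.3 against 34.1 in AML5. Reads from repeated DNA are harder to place, so the copies of each 16-letter word of a bin were counted in the reference. In 10.3% of the sites (1451), over 50% of the words occurred 50 times or more on the autosomes, against 16% of all candidates. Sites made up 0.643% of such repeated candidates and 1.2% of candidates with no more than 10% repeated words. A C-to-T difference in the genome of a line is read as an unmethylated cytosine, and its part in these sites was not tested.

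The bins with the largest differences had calls of nearly 1 kind in each line. The LIN7A site at chr12:81234001-81234500, in an intron of a gene for a cell polarity scaffold protein, had 0 methylated of 58 calls in OCI-AML3 (interval 0% to 6.21%) and 47 of 47 in AML5 (92.4% to 100%). Its 3 CpG dinucleotides lie close together, as the stretch above shows. A single read can thus give several of these calls, and the intervals are too narrow. The FHIT site at chr3:60709501-60710000, in an intron of a gene at a common fragile site, had 0 of 106 calls (0% to 3.5%) and 139 of 140 (96.1% to 99.9%). The UST site at chr6:149333501-149334000 had 0 of 176 calls and 230 of 236 over 7 CpG dinucleotides. The site 147 kb upstream of MBNL1, a gene for a splicing regulator, had 1 of 136 calls and 96 of 97. In each of these 4 sites the highest CpG in OCI-AML3 lay below the lowest CpG in AML5.

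Some sites lay near genes of the myeloid lineage. NLRP3 encodes the sensor of an inflammasome of monocytes and macrophages. The site at chr1:247564501-247565000, 14.7 kb upstream of its TSS, had 7 of 435 calls methylated in OCI-AML3 (1.51% as a bin level) and 516 of 542 in AML5 (94.7%). Its highest CpG in OCI-AML3 was 5.26% and its lowest in AML5 was 86.4%. The CpG dinucleotides 1 to 2 kb away averaged 91.6% and 91.3%, so the surroundings had nearly equal levels in the lines. Between the bin and these flanks, 3 CpG dinucleotides were below 20% in both lines.

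MPO, the granule enzyme myeloperoxidase that is used to assign leukemias to the myeloid lineage, had 3 sites among 19 candidates. They lay 7.96 kb, 8.46 kb and 10.5 kb upstream of its TSS. Their levels were 1.39% and 94.6%, 2.47% and 94.4%, and 7.82% and 98.2% in OCI-AML3 and AML5. All 3 belonged to a single stretch of 4750 bp and 51 CpG dinucleotides that was low in OCI-AML3. The MPO promoter itself was methylated in both lines, at 94.1% and 94.3%. In these bins 43.9%, 83.3% and 44.1% of the 16-letter words were repeated, so all 3 rest in part on DNA with many near copies. The corresponding shares were 0.412% at the NLRP3 site and 5.36% at the LIN7A site.

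**Figure D2:**
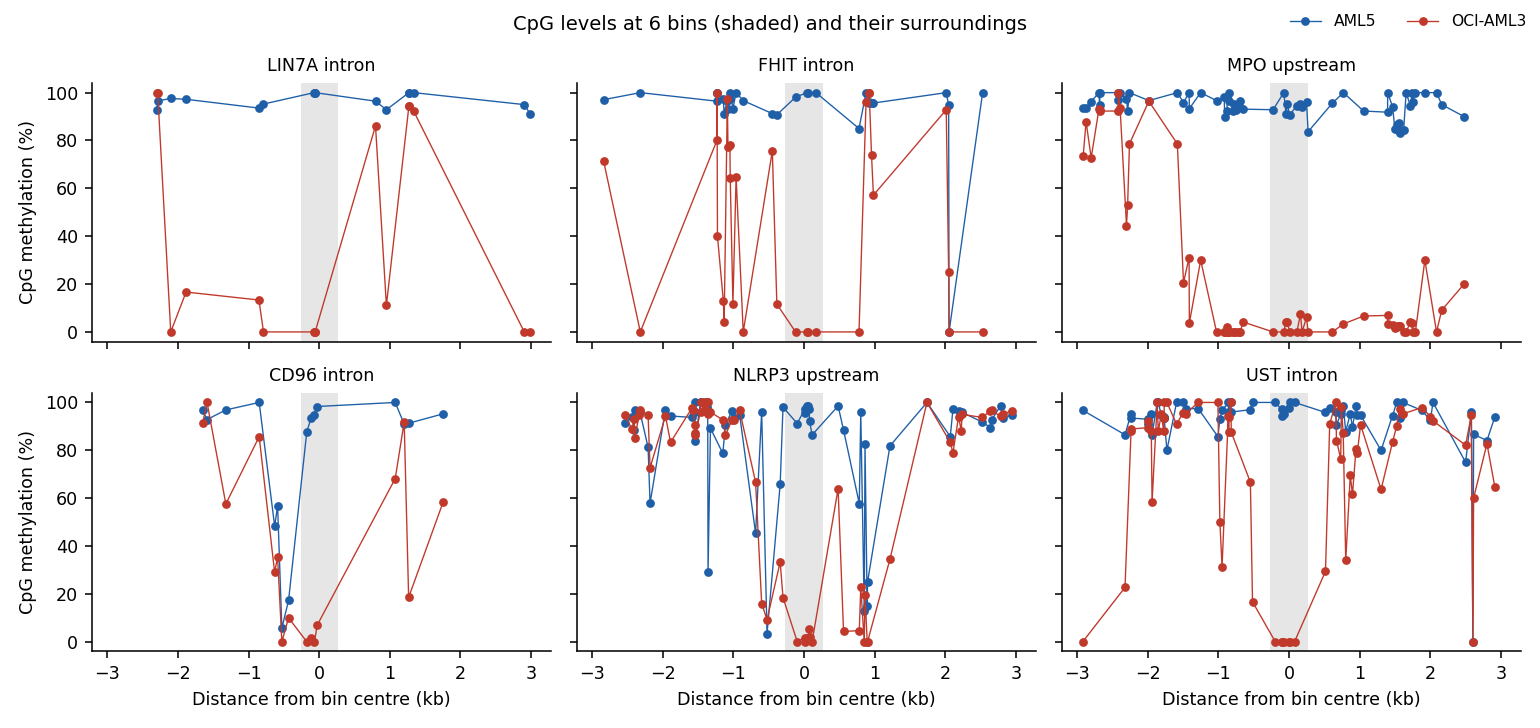
Methylation of single CpG dinucleotides (vertical axis, %) by distance from the bin centre (horizontal axis, kb) at 6 of the sites, in OCI-AML3 (red) and AML5 (blue), with the bin shaded. Inside the bins the 2 lines do not overlap at any CpG, whereas the surroundings differ from site to site: methylated in both lines at most CpG dinucleotides around the UST bin, low over several kb in OCI-AML3 around the MPO bin, and low in both lines at some CpG dinucleotides beside the NLRP3 and CD96 bins.

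The surroundings of the sites, which the rule did not use, covered a wide range in OCI-AML3. At 1 to 2 kb from the bin centre the median level was 50.7% in OCI-AML3 (interval 50.1% to 51.2%; interquartile range 33.2% to 70.6%) and 84.9% in AML5, against 74.0% and 83.1% around all candidates. At 40 to 50 kb the medians were still 51.7% and 82.2%, against 71.1% and 78.9%. The AML5-only bins were mirrored, with flanks of 83.6% in OCI-AML3 and 58.5% in AML5. Bins unmethylated in both lines had flanks of 46.6% and 61.6%. The median difference between the lines at 40 to 50 kb, OCI-AML3 minus AML5, was -22.0 points around the sites and -7.14 points around all candidates, so the lower methylation reached far beyond the bins.

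The sites were divided by their OCI-AML3 flank at 1 to 2 kb, a division made after these values had been seen. Flanks were below 50% around 6774 sites (48.3%), called embedded here, and above 70% around 3528 sites (25.2%), called isolated. Another 3546 lay between, and 175 had no usable flank. Isolated sites had median flanks of 84.9% and 91.5%, and embedded sites 32.7% and 77.5%. Among candidates with an OCI-AML3 flank below 50% and an AML5 flank above 70%, 5.90% were sites (4249 of 71966, 5.73% to 6.08%). Among candidates with both flanks above 70%, 0.474% were (3349 of 707197, 0.458% to 0.490%). The AML5-only bins had 360 counterparts of the isolated sites, so the ratio within isolated bins was 9.80, close to that of the whole set.

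**Figure D3:**
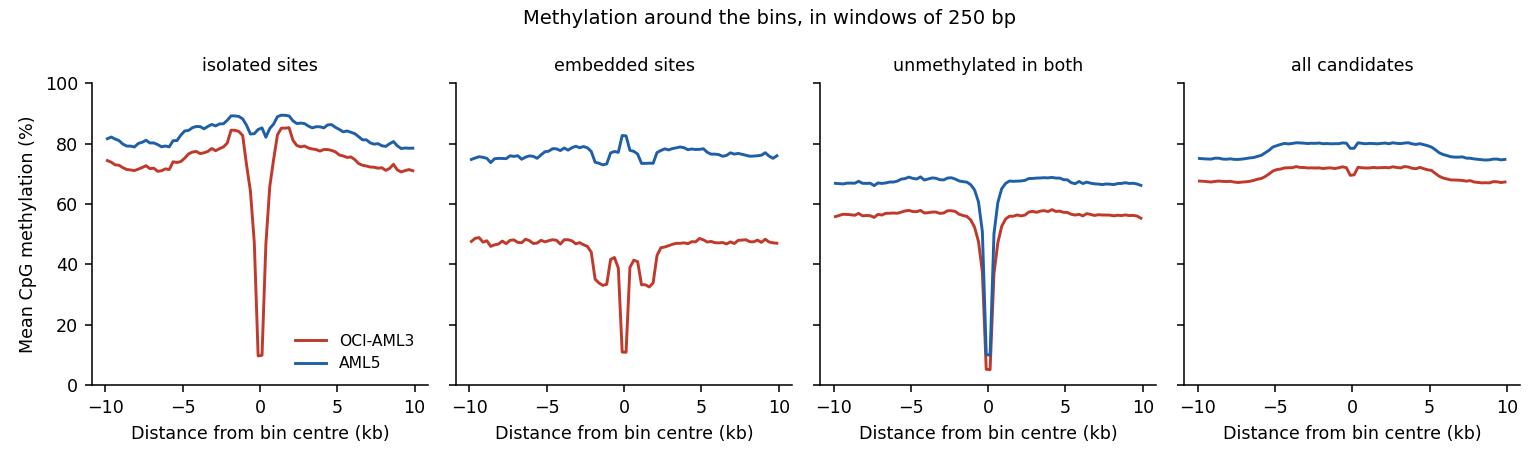
Mean CpG methylation (vertical axis, %) in windows of 250 bp by distance from the bin centre (horizontal axis, kb), in OCI-AML3 (red) and AML5 (blue), around isolated sites, embedded sites, bins unmethylated in both lines and all candidates. Around isolated sites OCI-AML3 drops from 84.0% at 1375 bp to 9.74% in the bin while AML5 is at 84.6% there, and around embedded sites OCI-AML3 stays below 50% throughout. The shoulders at 1 to 2 kb in the first and second panels come from the division itself.

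The length of low methylation was also measured. A stretch was the run of CpG dinucleotides below 50% in OCI-AML3 around a bin, ended by 2 CpG dinucleotides in a row at or above 50%. The 14023 sites fell in 12657 stretches with a median of 1692 bp (1646 to 1742 bp) and 10 CpG dinucleotides. Stretches of isolated sites had a median of 724 bp and 7 CpG dinucleotides, and 67.0% were under 1 kb. Stretches of embedded sites had a median of 3240 bp and 14 CpG dinucleotides, and 30.5% reached 5 kb. These lengths follow in part from the division itself, which used the OCI-AML3 level 1 to 2 kb away. The longest reached 154869 bp. Bins unmethylated in both lines lay in stretches of 1964 bp in OCI-AML3 and 1084 bp in AML5, so the same bins sat in wider low stretches in the mutant line.

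Few sites adjoined each other. Only 1116 sites touched another, while 30.8% had another within 5 kb and 68.3% within 50 kb, against 53.1% of the AML5-only bins. With gaps of at most 1 bin, 12293 of 13100 runs were single bins, 707 held 2 bins and 100 held 3 or more. The longest in number held 5 bins over chr6:131659501-131663500, in an intron of a gene with no symbol (ENSG00000290067) and 129 kb from the TSS of ARG1, the liver arginase. Its 29 CpG dinucleotides averaged 12.7% in OCI-AML3 and 90.8% in AML5. A run of 4 bins over chr3:61625001-61628500, in an intron of the receptor phosphatase gene PTPRG, had 7.25% and 93.7% over 15 CpG dinucleotides.

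All autosomes held sites. Their share of the candidates ranged from 0.406% on chromosome 20 to 1.84% on chromosome 4. The isolated sites were spread more evenly, from 0.161% to 0.345%. On chromosomes 20 and 21 the sites outnumbered the AML5-only bins only 1.79 and 1.69 to 1, while on every other autosome the ratio was 5.53 or more.

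With regard to genes, 45.0% of the sites lay in a protein-coding gene (44.1% to 45.8%), the same as all candidates (45.0%), and 1.98% had their centre in an exon, against 2.66%. The AML5-only bins and the bins unmethylated in both lines lay in coding genes less often, at 32.5% (30.1% to 35.1%) and 33.8% (33.2% to 34.5%). The median distance to the nearest coding TSS was 122 kb, against 91.4 kb for candidates. Isolated sites were nearer, at 69.3 kb, and embedded sites farther, at 172 kb. Of 12410 coding genes with a candidate in their body, 2111 (17%) held a site, 536 held 3 or more and 109 held 10 or more.

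Of the 10 coding genes with most sites, 9 are described here. They were long, and several are known for roles in neurons and cell contacts. PTPRM and PTPRG, genes of receptor tyrosine phosphatases, held 101 of 541 and 59 of 619. GPC6 and GPC5, genes of glypican proteoglycans, held 72 of 632 and 58 of 680. The others were FHIT with 82, CCSER1 with 79, the polarity gene PARD3B with 78, the muscarinic receptor gene CHRM3 with 48 and the syntaxin-binding gene STXBP5L with 43. None of the 9 held an AML5-only bin, a class that made up 0.0959% of all candidates. Their candidates that were not sites were also lower in OCI-AML3, for instance 47.2% against 90.7% in PTPRM and 59.6% against 92.2% in PTPRG.

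The promoters of these 9 genes, within 1 kb of the TSS and so outside every site, were higher in OCI-AML3 in all 9. The GPC6 promoter was at 74.8% in OCI-AML3 and 4.01% in AML5, the CCSER1 promoter at 73.7% and 4.21%, and the PTPRG promoter at 62.7% and 2.75%. The smallest increase was that of PTPRM, from 1.82% in AML5 to 5.73% in OCI-AML3. Low gene bodies and higher promoters in OCI-AML3 thus stood together in these genes, and the order was opposite to that of the sites.

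This pairing was not general. Of 103 genes with 10 or more sites and a promoter level, 26 (25.2%, 17.8% to 34.4%) had a promoter at least 20 points higher in OCI-AML3 and 15 (14.6%) a promoter at least 20 points lower. Of 10105 genes without a site, 2.08% (1.82% to 2.38%) were higher and 7.95% lower by that margin. To leave out short genes, those with 100 or more candidates were taken alone. Promoters at least 20 points higher made up 2.65% of 716 genes with no site, 5.26% of 761 with under 2% sites, 12.2% of 139 with 2% to 5% and 27.0% (18.2% to 38.1%) of 74 with 5% or more. Promoters at least 20 points lower made up 9.22%, 9.99%, 11.5% and 16.2% of the same groups, whose median numbers of candidates were 140, 219, 172 and 193. The median promoter difference in the last group was 3.04 points (-3.73 to 10.8), OCI-AML3 minus AML5. The medians of the rest of the body in the last group were 50.8% in OCI-AML3 and 87.0% in AML5. Overlapping genes share bodies and nearby promoters, so these genes are not independent.

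**Figure D4:**
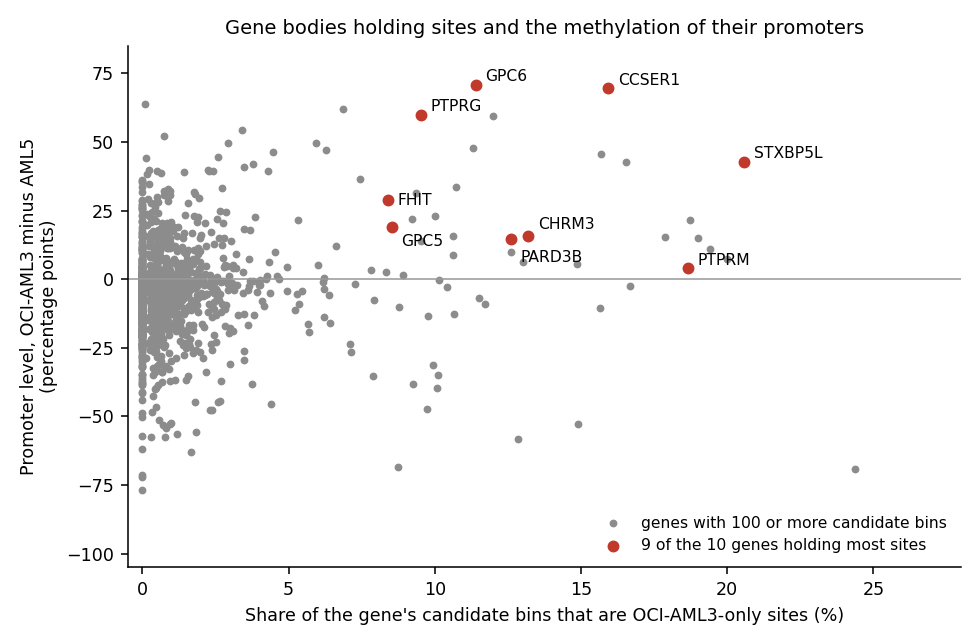
Promoter level in OCI-AML3 minus AML5 (vertical axis, percentage points) by the share of the gene's candidate bins that are OCI-AML3-only sites (horizontal axis, %), for genes with 100 or more candidates (gray) and 9 of the 10 genes that hold most sites (red), with the other one left out. The red points all lie above 0, and the gray points lie on both sides of 0.

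By share of candidates, with at least 3 sites, the leading genes were ZNF737 (5 of 14), MME (19 of 66), AASS (4 of 14), PKIA (7 of 25), ZNF665 (6 of 22), ZNF606 (5 of 19), MMRN1 (5 of 20), PDE1A (38 of 156), LRRC9 (10 of 43) and PTPRQ (14 of 63). ZNF737, ZNF665 and ZNF606 encode zinc finger proteins of chromosome 19, and MME encodes the membrane protease neprilysin. Promoters of the 3 zinc finger genes were higher in OCI-AML3, as with ZNF606 at 80.0% against 27.0%. So were those of AASS (50.2% against 6.54%), PKIA (59.1% against 11.4%) and LRRC9 (50.3% against 40.3%). PDE1A, a phosphodiesterase gene, went the other way, with its promoter at 10.7% in OCI-AML3 and 80.0% in AML5, and MMRN1, a gene of megakaryocytes and endothelium, had 43.7% and 96.3% over 6 CpG dinucleotides. MME and PTPRQ had too few CpG dinucleotides near the TSS for a promoter level.

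Taking for every site the coding gene with the nearest TSS, 4074 genes had a promoter level, with a median difference of -2.52 points (-2.82 to -2.28), OCI-AML3 minus AML5. Over all candidates the median was -2.92 points (-3.05 to -2.81). Promoters lower by at least 20 points made up 12.4% of the nearest genes of sites and 9.83% of those of all candidates, and promoters higher by at least 20 points 5.57% and 2.77%. Among genes with a site 5 to 20 kb from the TSS, 16.7% were lower and 7.86% higher by that margin, against 9.91% and 2.83% for candidates at that distance. The nearest genes of sites are a subset of those of candidates, and among them both directions of a large promoter difference had higher shares, with the median little moved.

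Gene lists of blood lineages counted a site in the gene or nearest to its TSS. A site counted for a gene can thus lie far outside it. Their shares lay on both sides of the 0.994% of all candidates. Among these and the further lists below, only 2 intervals did not hold that share, those of the myeloid transcription factor genes and of the stem and progenitor regulators. AML5-only bins are given as counts, and they made up 0.0959% of all candidates. Myeloid transcription factor genes held 14 sites in 3999 candidates (0.350%, 0.209% to 0.587%), in 7 of 16 genes, and 7 AML5-only bins. The genes KLF4 and IRF4 had 3 each and IRF8 had 2. An IRF4-nearest site 110 kb from its TSS had 1 of 139 calls methylated in OCI-AML3 and 175 of 194 in AML5, and a KLF4-nearest site 661 kb from its TSS had 0 of 220 and 112 of 137. Stem and progenitor regulators held 53 sites in 3873 candidates (1.37%, 1.05% to 1.79%), in 15 of 17 genes, and 3 AML5-only bins. KIT, the receptor of stem cell factor, had 13 of these 53 sites in 277 candidates (4.69%), all of them outside the isolated class. The KIT sites with the largest differences lay outside the body of any coding gene. The share of this list thus rests in part on KIT. Whether the list would still lie above the 0.994% of all candidates without KIT was not tested, so its higher share is not shown for the list as a whole. Bins near each other are not independent, so the intervals of the lists are too narrow. Of the 7 sites of BCL11A, a transcription factor of lymphoid and erythroid cells, 6 were isolated. MECOM, a regulator of stem cells that is activated in some leukemias, had 7.

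The 3 MPO sites were the only sites of 13 neutrophil granule genes, which had 207 candidates (1.45%, 0.494% to 4.17%) and 1 AML5-only bin. Monocyte receptor and innate immune genes held 9 sites in 1354 candidates (0.665%, 0.350% to 1.26%). Of these, 4 had TLR4 as the gene with the nearest TSS, 230 to 797 kb away, and 2 were at NLRP3. Another 1, an isolated site, lay 106 kb from the TSS of the scavenger receptor gene CD36. Neither the monocyte and innate immune genes nor the T-cell genes had an AML5-only bin. Such bins made up 0.0959% of all candidates, and whether the 2 lists differ from that share was not tested. T-cell genes held 33 sites in 3831 candidates (0.861%, 0.614% to 1.21%). Of these, 19 were at CD96, a receptor of T and NK cells that is also found on leukemic stem cells. CD96 sites made up 12.8% of its 149 candidates, and its promoter was at 35.7% in OCI-AML3 and 94.1% in AML5. In its intron, the site at chr3:111021001-111021500 had 0 of 73 calls methylated in OCI-AML3 and 124 of 130 in AML5, and the one at chr3:111254001-111254500 had 5 of 271 and 221 of 236. The CD96 sites thus went with a lower promoter, unlike those of GPC6 and the other long genes above.

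B-cell genes held 8 sites in 1450 candidates (0.552%, 0.280% to 1.08%), with 2 each at BANK1, EBF1 and RAG1. They also held 8 AML5-only bins, as many as sites, against 10.4 sites per AML5-only bin among all candidates. Erythroid and megakaryocyte genes held 1 site in 520 candidates (0.192%, 0.0340% to 1.08%), at the anion exchanger gene SLC4A1. The 18 neuronal adhesion and synapse genes all had sites, 213 in 21213 candidates (1.00%, 0.879% to 1.15%). PTPRD had 39 and the splicing factor gene RBFOX1 23. The neuronal list had 44 AML5-only bins, a larger share than the 0.0959% of all candidates. The interval of the neuronal share holds that of all candidates. The genes of the DNA hypomethylation signature were drawn by the study from genes found with these lines and then narrowed on patient samples. They held 13 sites in 2137 candidates (0.608%, 0.356% to 1.04%) and 6 AML5-only bins. ADAMTS5 had 4, which lay 623 to 833 kb from its TSS, and the HOX cofactor gene MEIS1 had 3. PLD6 also had 3, which lay 6.10 to 14.4 kb from its TSS in the body of another gene, MPRIP. The MEIS1 site with the largest difference, at chr2:66343001-66343500, was embedded and lay 317 kb from the MEIS1 TSS. It had 3 of 53 calls methylated in OCI-AML3 and 81 of 99 in AML5. The MEIS1 promoter was higher in OCI-AML3, at 16.7% against 4.20% in AML5. The promoters of ADAMTS5 (4.05% and 50.2%) and PLD6 (12.8% and 15.9%) were lower in OCI-AML3. The paper reports MEIS1 promoter hypomethylation in OCI-AML3, in regions that were chosen as differing between the lines and at single array CpG sites. It also reports higher MEIS1 RNA and protein in OCI-AML3, and lower MEIS1 methylation in patients with DNMT3A mutations. The promoter value here is a mean within 1 kb of the TSS. It is another measure over another window, so it does not decide on the regions of the paper. Because the list began from these lines, it is not independent evidence of a direction.

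The sequence of the bins was searched on both strands for the letters of 16 motifs: GAGGAAGT for PU.1, ACAGGAAG for ERG and FLI1, TGTGGTTT for RUNX, TTGCNNAA for C/EBP, TGANTCA for AP-1, AGATAAG for GATA, CAACTGNC for MYB, TGACAGNT for MEIS, TGATTNAT for HOX with PBX, GAAANNGAA for IRF, GGAANNGAA for ETS with IRF, GGGANTTTC for NF-kB, AGGNGGCNG for CTCF, CAGCTG for the E-box, CAAAGTCCA for HNF4 and ATTTGCAT for POU. The PU.1 and ERG letters share GGAAG, and a single stretch can match IRF and ETS with IRF. A match says only that the letters are present, and no binding was measured.

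C/EBP matches were in 29.3% of the sites (28.5% to 30.1%) against 23.6% of all candidates. PU.1 matches were in 3.52% against 2.67%, RUNX matches in 5.94% against 4.56%, and AP-1 matches in 18.4% against 15.3%. CTCF matches were less frequent, in 11.1% against 15.3%. Of the 16 motifs, 14 had a higher share in the sites, the exceptions being CTCF and the E-box. For GATA, MYB, NF-kB, HNF4 and the E-box the interval of the sites held the share of candidates. With GC content held between 37.6% and 45%, the E-box was instead higher in the sites, at 17.0% (16.1% to 17.9%) against 15.5%, and HOX with PBX was level, at 10.3% and 10.2%.

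The isolated sites had a higher share of matches than the embedded ones for every motif but GATA and POU, though some intervals overlap. C/EBP matches were in 36.4% of isolated sites (1285 of 3528, 34.9% to 38.0%) and in 26.2% of embedded sites (25.2% to 27.2%), and in 23% of candidates with both flanks above 70%. By OCI-AML3 flank in steps of 20 points, the share of sites with a match rose from 25.6% (flank below 20%) through 26.6%, 26.9% and 30.2% to 38.8% (flank above 80%), while that of candidates fell from 25.6% to 23.2%. The shares for PU.1 were 4.45% and 3.14%, for RUNX 7.14% and 5.18%, and for ERG and FLI1 5.58% and 3.62%. GATA matches were less frequent in isolated sites (5.98%, 5.25% to 6.81%) than in embedded sites (7.47%, 6.87% to 8.12%). They were also no more frequent in isolated sites than in candidates (6.65%). POU matches were in 4.08% of isolated and 5.08% of embedded sites, with overlapping intervals. In isolated AML5-only bins C/EBP matches were in 23.3% (84 of 360, 19.3% to 28%), whose interval holds the share of candidates.

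**Figure D5:**
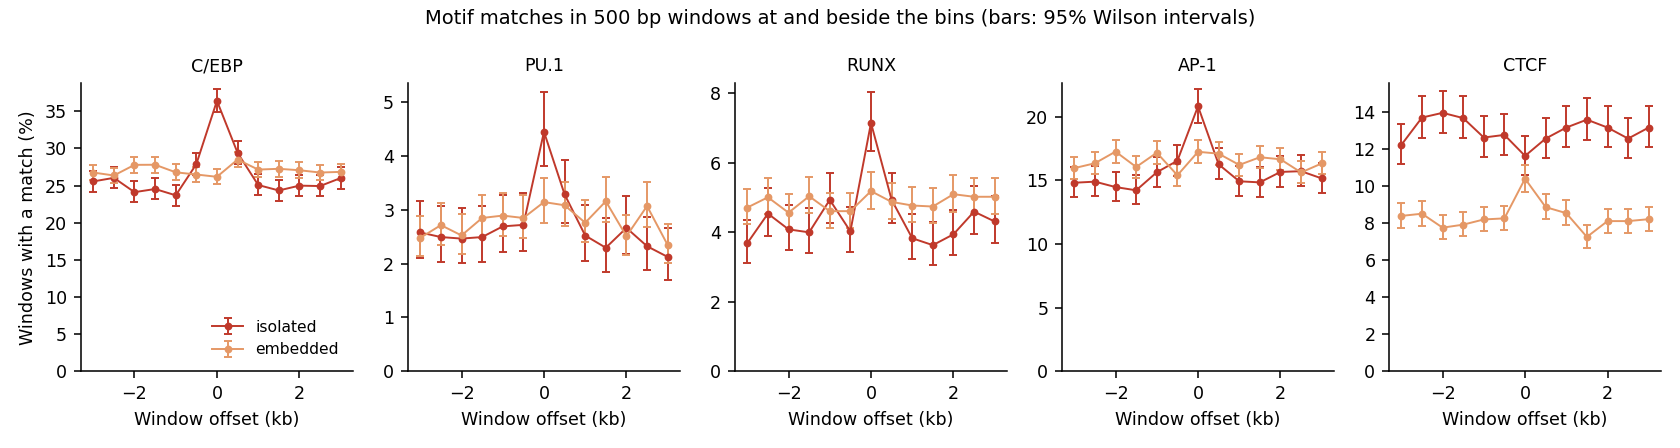
Share of 500 bp windows with a motif match (vertical axis, %) by the offset of the window from the bin (horizontal axis, kb), at isolated (red) and embedded (orange) sites, with 95% Wilson intervals as bars and a separate vertical scale for each motif. In isolated sites C/EBP matches peak at offset 0 with 36.4%, against 25.3% over offsets of 2 kb and more, and the embedded sites show no C/EBP peak.

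Windows beside the same sites gave a local comparison. In windows 2 to 3 kb away from isolated sites C/EBP matches were in 25.3% (24.7% to 25.9%), so the share in the bin was 1.44 times higher. The ratio was 1.82 for PU.1 (4.45% against 2.44%), 1.70 for RUNX (7.14% against 4.19%), 1.56 for ERG and FLI1, and 1.38 for AP-1 (20.8% against 15.1%), and 0.886 for CTCF. Mean GC content was 41.6% in the bins and 41.3% in those windows, which were not held to any CpG number. At embedded sites the CTCF ratio was 1.27 (10.4% against 8.18%), with a mean GC content of 41.3% in the bins and 38.9% in the windows. Restricted to candidates with a GC content of 37.6% to 45%, C/EBP matches were in 38.6% of isolated sites and 24.8% of candidates. With no more than 10% repeated words they were in 37.7% of isolated sites (35.8% to 39.7%) and 26.9% of candidates.

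Bins unmethylated in both lines with flanks above 70% had a C/EBP share of 35.2% (33.8% to 36.7%), whose interval overlaps that of the isolated OCI-AML3-only sites. PU.1 matches were in 10.6% of them (9.76% to 11.6%) against 4.45% of the isolated sites (3.82% to 5.18%), and AP-1 matches in 29.9% (28.6% to 31.3%) against 20.8% (19.5% to 22.2%). RUNX matches were in 8.15% (7.37% to 9.01%) against 7.14% (6.34% to 8.04%), whose intervals overlap, as did those of IRF (22.3% and 22.3%), CTCF (12.5% and 11.6%) and POU (3.85% and 4.08%).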

How the data were processed

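Genomic DNA of OCI-AML3 and AML5 was bisulfite converted and sequenced by the authors as 1 paired-end library per line, with 2 reads of 100 bp. Per the labels, reads were aligned to hg19 with Bismark and Bowtie 0.12.8. The deposited files give, for each of 28217448 CpG dinucleotides, raw counts of methylated and unmethylated calls, with the strands already added together and no normalization. Whether duplicate reads were removed is not given in the sources used here, and duplicates or the several calls of 1 read would make counting intervals too narrow. All 26752702 autosomal positions fell on CG in GRCh37. The column of methylated calls was taken as the one in which the mitochondrial genome, known to be nearly unmethylated, is low (0.168% and 0.101%). The count tables had no column of other samples.

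The level of a CpG was its methylated calls over all calls, and the bin level the mean over CpG dinucleotides with 10 or more reads in both lines. TSS, genes and exons were those of GENCODE lifted to GRCh37, a later release than the one in the paper. Flanks were means over CpG dinucleotides on both sides of the bin centre, and promoters reached 1 kb on either side of the TSS, with at least 5 CpG dinucleotides. Shares have Wilson intervals and medians have intervals from order statistics. The bins, the sites and the gene and motif lists were chosen with earlier results of these data known. Genes and sites were named by rule: the 10 bins with the largest difference, the 5 longest runs, the 10 coding genes with most sites and the 10 with the largest share of at least 3 sites, up to 3 genes per list and the 3 bins on either side of each limit. Some of these are not reported here. The UST, SCG3 and MOGAT1 sites, the division into isolated and embedded sites, the windows beside the sites, the comparison of gene groups and the counts of repeated words were chosen after values were seen. Alternatives changed the read minimum, the averaging, the grid, the TSS distance and set, the limits and the depth ceiling. Class calls, intervals and motif searches were first tested on simulated calls at the real depths. Python 3.11.15 was used with numpy 2.4.6, pandas 2.3.3, numba 0.67.0, scipy 1.17.1 and matplotlib 3.10.9.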

Additional observations from a re-analysis of the deposited data

How the results depend on the processing

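Alternatives changed 1 choice at a time, with the limits of both lines moved together. In all of them the OCI-AML3-only sites outnumbered the AML5-only bins and the median promoter difference was below 0. With at least 20 reads per CpG there were 9122 sites, a ratio of OCI-AML3-only to AML5-only bins of 11.2, a median OCI-AML3 flank of 54.0% and a median stretch of 1449 bp. With at least 5 reads the flank was 49.4% and the stretch 1797 bp. With limits of 10% and 80% there were 3782 sites, a ratio of 18.7, 51.0% of sites in a coding gene, a flank of 53.9% and a median promoter difference of -2.17 points, and with limits of 30% and 60% these were 45455, 8.50, 40.3%, 48.0% and -2.83 points. Over 10 kb from every TSS the ratio was 9.57, the share in a gene 43.2%, the flank 49.0%, the stretch 1844 bp and the promoter difference -2.26 points. With protein-coding TSS alone the share in a gene was 42.3% and the stretch 1639 bp. The cause of these shifts was not tested. Pooling the calls of a bin, moving the bins by 250 bp, leaving out deep bins and, chosen after seeing the data, allowing at most 9 CpG dinucleotides in the reference gave 12978 to 15386 sites and moved no ratio, share, flank, stretch or promoter difference past its interval.

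Sites were 0.268% of candidates under the strictest limits and 3.22% under the widest, and the number of sites is thus a property of the limits. C/EBP matches were in 34.3% to 37.9% of isolated sites over all alternatives, CTCF matches were in 9.95% to 13.2% of all sites, and 12 to 15 of the 16 motifs had a higher share in the sites than in candidates, so the direction of some motifs changed. Among genes with 10 or more sites, promoters at least 20 points higher in OCI-AML3 ranged from 19.3% with limits of 30% and 60% to 37.5% with limits of 10% and 80%, and were 33.9% with at least 20 reads. With 1 library per line, no replicate could be left out. No paired analysis was possible because each line has 1 library. A site rests on as few as 30 calls, and genotype differences, duplicate reads and misplaced reads could not be separated from methylation with these files.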
